A study of Mus musculus with 8 samples.

Results

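The genes described here encode 10 secreted or surface-bound neuronal proteins, and several of their transcripts are known to follow neuronal activity. They are the precursors *Vgf* and *Scg2*, the pentraxins *Nptx1*, *Nptx2* and *Nptxr*, the prohormone convertase *Pcsk1*, the peptide precursors *Penk*, *Pdyn* and *Tac1*, and the surface ligand *Nrn1*. They were chosen by name, with earlier results of these data known, and all 10 were found among the 45706 genes of the series. The series holds bulk RNA-seq of hippocampal neurons cultured from *Wt* C57/Bl6 mouse embryos at embryonic day 18 and collected after 12 to 14 days in vitro. In one group, 4 wells received vehicle (H2O), and in the other, 4 wells received the melanin-concentrating hormone (MCH) peptide at 1 µM, both for 4 h. MCH is a hypothalamic neuropeptide, and the comparison asks which transcripts of hippocampal neurons respond to it. The wells came from 2 independent cultures, each with 2 vehicle and 2 MCH wells, and the culture of each well was not given. The *P* values therefore measure the spread between these wells and not between independent cultures. Both groups share the antimitotic 5-fluoro-2′-deoxyuridine, used to limit glia, and the sample labels carry an Alzheimer's disease tag although the genotype is wild type.

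Neuropeptides are made as large precursors, which are sorted into dense-core vesicles, cut by proprotein convertases such as the product of *Pcsk1*, and released when a neuron fires strongly. Neuronal pentraxins are secreted or membrane-tethered proteins that bind AMPA-type glutamate receptors at excitatory synapses, and *Nrn1* encodes neuritin, a small protein held on the cell surface by a lipid anchor that promotes neurite growth. Several activity-regulated genes carry a cyclic AMP response element (CRE) close to their start, the site bound by the activity-regulated transcription factor CREB.

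The RefSeq promoter table, on GRCm38.p6, held windows of 250 bases before to 50 bases after the start for 4 of the 10 genes, namely *Scg2*, *Pcsk1*, *Tac1* and *Pdyn*, the last with 2 starts. The windows of *Pcsk1*, *Scg2* and *Tac1* are shown 5′ to 3′, because they hold the CRE or part of it. Capitals mark the full CRE, TGACGTCA, and its core, TGACG, on either strand, so that a core on the other strand reads CGTCA. A full CRE on its own counts as 2 cores.
Pcsk1, chr13:75089607-75089906, plus strand: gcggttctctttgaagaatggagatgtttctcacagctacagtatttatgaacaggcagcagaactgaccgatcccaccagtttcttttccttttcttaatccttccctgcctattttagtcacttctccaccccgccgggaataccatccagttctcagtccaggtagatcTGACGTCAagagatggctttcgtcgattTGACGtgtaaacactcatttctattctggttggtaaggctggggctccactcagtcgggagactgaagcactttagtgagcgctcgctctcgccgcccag
Scg2, chr1:79439977-79440276, minus strand: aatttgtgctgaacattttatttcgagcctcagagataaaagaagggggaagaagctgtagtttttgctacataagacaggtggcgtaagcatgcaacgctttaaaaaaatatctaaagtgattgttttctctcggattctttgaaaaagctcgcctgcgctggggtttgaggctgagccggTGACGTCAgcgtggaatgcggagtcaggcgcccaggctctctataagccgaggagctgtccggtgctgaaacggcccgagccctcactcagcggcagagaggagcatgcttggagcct
Tac1, chr6:7554811-7555110, plus strand: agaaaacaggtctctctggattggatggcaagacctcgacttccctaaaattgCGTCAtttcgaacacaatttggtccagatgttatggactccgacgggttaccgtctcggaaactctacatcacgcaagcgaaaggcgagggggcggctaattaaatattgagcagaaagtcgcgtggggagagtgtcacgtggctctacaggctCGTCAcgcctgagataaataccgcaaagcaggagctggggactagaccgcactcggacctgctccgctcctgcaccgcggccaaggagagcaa

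The full CRE stood from 78 to 71 bases before the start of *Pcsk1* and from 68 to 61 bases before that of *Scg2*, and 588 of all 32851 windows (1.79%) held it. *Pcsk1* held a further core from 50 to 46 bases before its start. *Tac1* held no full CRE and 2 cores, the first base of one 197 bases and that of the other 43 bases before the start. A core was present in 20.8% of all windows and in neither window of *Pdyn*. The AP-1 letters TGANTCA, the serum response element (SRE) and the letters TATAAA, each searched on both strands, had 0 matches in the 5 windows, against 7.81%, 1.63% and 13.6% of all windows. A match describes the letters only, and binding was not measured. The distances are to RefSeq starts, and the GENCODE vM21 transcripts *Scg2-201* and *Tac1-205*, described below, start earlier. The CRE of *Scg2* and the nearer core of *Tac1* lie within the first exons of these transcripts.

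The libraries held 26083936 to 31844861 estimated reads each. After the treatment means were removed, the first principal component carried 59.8% of the variance and placed replicates 1 and 2 of both treatments on one side and replicates 3 and 4 on the other. The summed level of 9 astrocyte markers was 1098 to 1209 CPM (reads scaled to the size of the library) on the first side and 2348 to 2683 CPM on the second, while that of 8 pan-neuronal markers was 7495 to 7624 CPM and 6972 to 7158 CPM. The summed levels of every marker list overlapped between vehicle and MCH. These ranges span both sides, so their overlap does not show that the markers were level between treatments. Because the sides were read from the data, differences in level between them are given as values without a test, and a term for the side (batch block) was used as an alternative to the fit without a block. With that term, the *P* values measure the spread between wells within a side. It gave 1 of 7 excitatory-neuron markers and 1 of 5 dentate granule markers higher, and 2 of 11 inhibitory-neuron markers lower (edgeR, adjusted *P* below 0.05). No marker of the other lists passed, and over all genes tested 391 (2.61%) fell and 277 rose. The excitatory-neuron marker had every MCH well above every vehicle well. Of 14962 genes tested, 35 passed without a block (edgeR quasi-likelihood test, Benjamini–Hochberg adjusted *P* below 0.05), which is 0.234%.

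In MCH-treated wells, 4 of the 10 genes, *Nptx2*, *Pcsk1*, *Penk* and *Nrn1*, had every well below every vehicle well, with mean levels 10.6% to 18.9% lower. None of the 10 had every MCH well above the vehicle wells, and across all genes tested 2.96% separated in the lower direction. Without a block, 0 of the 10 genes passed by edgeR or by limma voom, whereas DESeq2 without a block called 3, *Nptx2*, *Pcsk1* and *Nrn1*, all lower, against 0.642% of all genes lower. At an unadjusted *P* below 0.05 in edgeR the same 4 separated genes were lower and none was higher, against 4.22% of all genes lower. With the batch block, 5 of the 10 fell (*Nptx2*, *Pcsk1*, *Penk*, *Nrn1* and *Scg2*) and none rose, against 2.61% of all genes lower. The same 5 fell with the replicate number as a block, against 2.25% of all genes lower. The median log2 fold change over the 10 genes was -0.15, and 8 of 10 were negative, whereas the median over all genes was -0.0027 and 51% were negative. Because the set was chosen with earlier results of these data known, these shares describe the set and do not test it. In bulk samples, fewer cells of a type and less RNA per cell cannot be told apart.

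**Figure D1:**
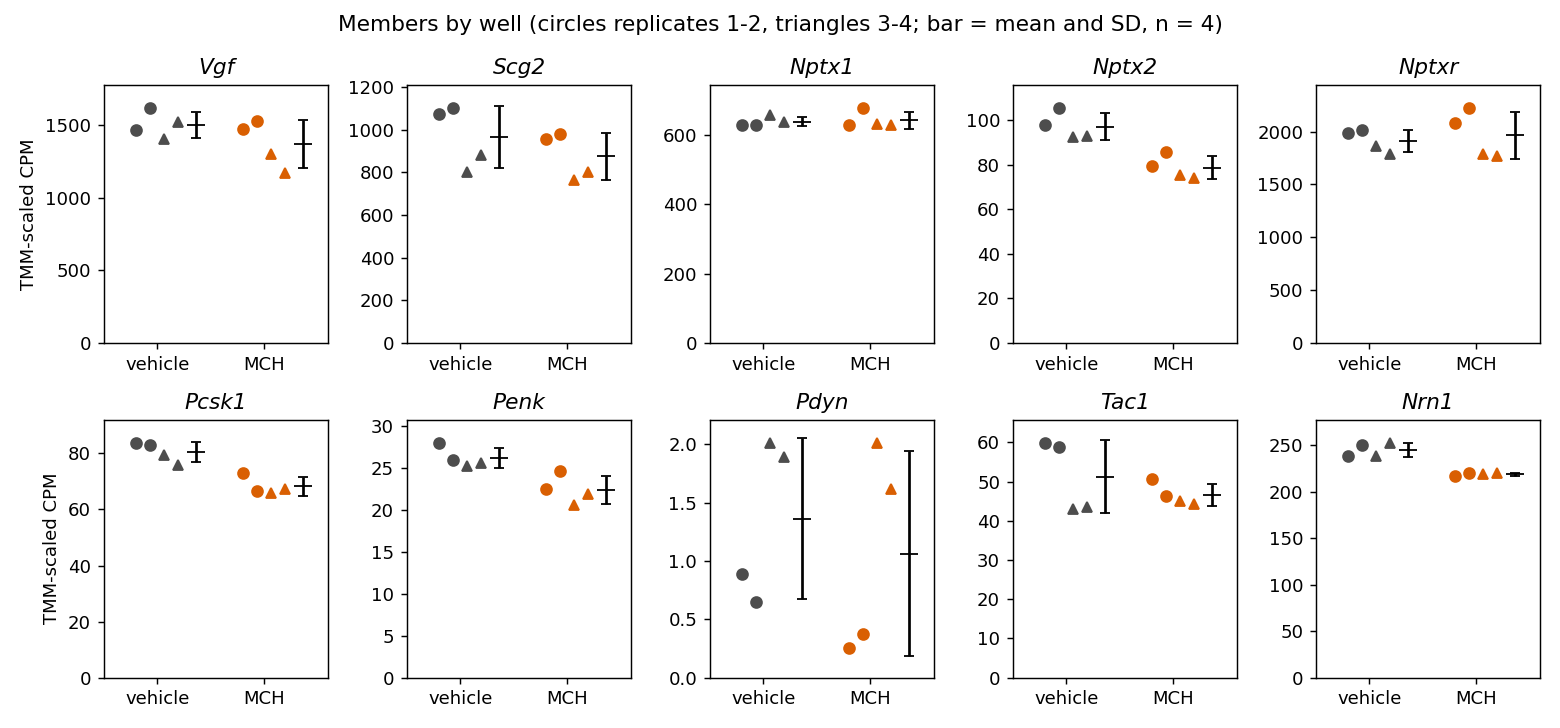
CPM (y axis, from 0, scaled by TMM) of each gene in each well of vehicle (grey) and MCH (orange), with replicates 1 and 2 as circles, replicates 3 and 4 as triangles, and the mean and SD (n = 4) beside them. The MCH wells lie below all vehicle wells for *Nptx2*, *Pcsk1*, *Penk* and *Nrn1*, and *Pdyn* separates by replicate rather than by treatment.

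Among the pentraxins, the MCH wells of *Nptx2* lay below all vehicle wells, whereas those of *Nptx1* and *Nptxr* overlapped with them. *Nptx2* (ENSMUSG00000059991, chr5:144545902-144557478, plus strand), also called Narp, is the activity-induced, secreted pentraxin. Its level was 97.9, 105, 92.2 and 92.8 CPM in vehicle replicates 1 to 4 and 79.5, 85.7, 75.5 and 74.0 CPM in MCH replicates 1 to 4. The highest MCH well thus lay below the lowest vehicle well. The means were 97.0 ± 6.06 and 78.7 ± 5.22 CPM (SD, n = 4). The log2 fold change was -0.30 (SE 0.059). Its edgeR adjusted *P* was 0.118 without a block and 2.28e-05 with the batch block, and the DESeq2 adjusted *P* without a block was 0.00181. The difference was -0.30 on replicates 1 and 2 and -0.31 on replicates 3 and 4, and between wells of the same number it ranged only from -0.33 to -0.29.

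*Nptx1* (ENSMUSG00000025582, chr11:119538719-119547753, minus strand) encodes a partner that assembles with the *Nptx2* product. It measured 630, 628, 658 and 637 CPM in vehicle and 629, 676, 632 and 629 CPM in MCH. Apart from MCH replicate 2, the MCH wells lay within the range of the vehicle wells. The log2 fold change was 0.0075 (SE 0.037, adjusted *P* = 1.0 by edgeR), with a 95% interval of -0.075 to 0.090, which does not reach the estimate for *Nptx2*. *Nptxr* (ENSMUSG00000022421, chr15:79786351-79804766, minus strand), the membrane-anchored pentraxin receptor that tethers the other pentraxins, measured 1986, 2015, 1860 and 1792 CPM in vehicle and 2080, 2219, 1783 and 1768 CPM in MCH. Its MCH wells were above the vehicle wells on replicates 1 and 2 (log2 difference 0.10) and below them on replicates 3 and 4 (-0.040). The difference between these was not past the threshold (edgeR interaction, adjusted *P* = 0.423), and the pooled log2 fold change was 0.037 (SE 0.078, adjusted *P* = 0.990). *Nptxr* lies over *Npcd* on the same strand, so its reads may be split between them and its value is uncertain.

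*Pcsk1* (ENSMUSG00000021587, chr13:75089826-75134861, plus strand) encodes the convertase PC1/3, which cuts many of the precursors described here. It measured 83.6, 83.0, 79.4 and 75.8 CPM in vehicle and 73.1, 66.6, 65.9 and 67.3 CPM in MCH. No MCH well reached the lowest vehicle well. The means were 80.5 ± 3.60 and 68.2 ± 3.33 CPM (SD, n = 4), and the log2 fold change was -0.24 (SE 0.048). The edgeR adjusted *P* was 0.126 without a block and 0.000574 with the batch block, and DESeq2 without a block gave 0.00622. *Pcsk1* was lower in MCH in all 4 same-numbered pairs, by log2 differences of -0.32 to -0.17.

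Both granin-like precursors were abundant. *Vgf* (ENSMUSG00000037428, chr5:137026392-137033351, plus strand), a nerve growth factor-inducible gene whose product is cut into several bioactive peptides, measured 1465, 1613, 1400 and 1520 CPM in vehicle and 1474, 1523, 1299 and 1165 CPM in MCH. The groups overlapped, and MCH replicate 4 was the lowest well. The log2 fold change was -0.14 (SE 0.084), with an edgeR adjusted *P* of 0.749 without a block and 0.362 with the batch block, and it was -0.037 on replicates 1 and 2 and -0.25 on replicates 3 and 4. *Scg2* (ENSMUSG00000050711, chr1:79434669-79440120, minus strand), the precursor of secretoneurin, measured 1075, 1100, 802 and 880 CPM in vehicle and 955, 981, 764 and 800 CPM in MCH. Within each side both MCH wells lay below both vehicle wells, but MCH replicate 4 (800 CPM) nearly reached vehicle replicate 3 (802 CPM). Replicates 3 and 4 lay lower than replicates 1 and 2 in both treatments, by 0.34 on the log2 scale. Without a block the log2 fold change of -0.14 (SE 0.12) did not pass (edgeR adjusted *P* = 0.856). With the batch block *Scg2* fell by 0.14 on the log2 scale (SE 0.028, adjusted *P* = 0.00849).

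*Penk* (ENSMUSG00000045573, chr4:4133531-4138819, minus strand) encodes preproenkephalin, whose longest coding sequence spelled 6 copies of the Met-enkephalin core and 1 of the Leu-enkephalin core. Its level was 27.9, 25.9, 25.2 and 25.6 CPM in vehicle and 22.5, 24.6, 20.6 and 21.9 CPM in MCH. The groups did not overlap, but the gap between MCH replicate 2 and vehicle replicate 3 was small. The log2 fold change was -0.23 (SE 0.064), with an edgeR adjusted *P* of 0.306 without a block and 0.0174 with the batch block, and a DESeq2 adjusted *P* of 0.161 without a block. The inhibitory-neuron marker *Gad1*, which encodes an enzyme that makes the transmitter GABA, fell with the batch block, by 0.097 on the log2 scale (edgeR adjusted *P* = 0.0267). It was 1 of 2 among 11 inhibitory-neuron markers that fell with that block, and none rose, against 2.61% of all genes lower. Without a block 8 of the 11 were negative and the others positive, with a median log2 fold change of -0.084. The summed level of 11 inhibitory-neuron markers was 3002 to 3516 CPM in vehicle and 2937 to 3331 CPM in MCH, and their part in the *Penk* result was not tested. *Penk* overlaps a noncoding gene on the opposite strand, and the library preparation kept strand.

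*Tac1* (ENSMUSG00000061762, chr6:7554879-7565834, plus strand) encodes the precursor of substance P and neurokinin A. It measured 59.8, 58.7, 42.9 and 43.4 CPM in vehicle and 50.5, 46.2, 45.0 and 44.3 CPM in MCH. On replicates 1 and 2 both MCH wells were lower (log2 difference -0.29), and on replicates 3 and 4 both were higher (0.049). The treatment differences on the sides did not differ past the threshold (edgeR interaction 0.34, SE 0.081, adjusted *P* = 0.199). The pooled log2 fold change was -0.14 (SE 0.12), with an edgeR adjusted *P* of 0.849 without a block and 0.295 with the batch block. *Pdyn* (ENSMUSG00000027400, chr2:129686565-129699844, minus strand), the precursor of the dynorphins, whose coding sequence spelled 3 copies of the Leu-enkephalin core, had few reads. There were 23, 18, 57 and 51 reads in vehicle and 8, 10, 58 and 46 reads in MCH. Replicates 3 and 4 held more reads than replicates 1 and 2 in both treatments. The log2 fold change of -0.36 carried an SE of 0.66 (edgeR adjusted *P* = 0.983), with a 95% interval of -1.86 to 1.15, and with the batch block the SE was 0.26 and the interval -1.01 to 0.054 (adjusted *P* = 0.333).

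*Nrn1* (ENSMUSG00000039114, chr13:36725361-36735131, minus strand) measured 239, 250, 239 and 252 CPM in vehicle and 217, 220, 219 and 220 CPM in MCH. The MCH wells lay close together, and all of them were below the vehicle wells. The means were 245 ± 7.35 and 219 ± 1.69 CPM (SD, n = 4). The log2 fold change was -0.16 (SE 0.033), with an edgeR adjusted *P* of 0.128 without a block and 0.0016 with the batch block, and a DESeq2 adjusted *P* of 8.6e-05 without a block. Its level differed little between the sides (0.0078 on the log2 scale), and the difference between treatments was -0.16 on each side. *Nrn1* lies opposite *Fars2* and an antisense gene.

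**Figure D2:**
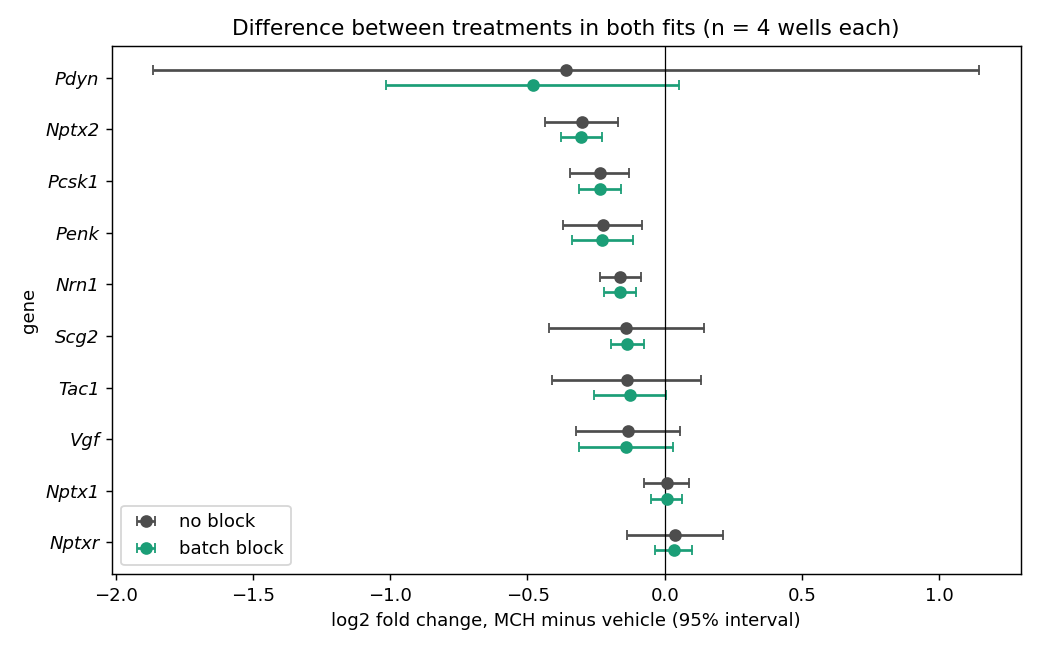
Log2 fold change, MCH minus vehicle, of the 10 genes (x axis) with 95% intervals from edgeR without a block (grey) and with the batch block (green), n = 4 wells per treatment. Apart from *Pdyn*, the estimates barely move between the fits, while the intervals narrow, most visibly for *Scg2*, from -0.42 to 0.14 without a block to -0.20 to -0.077 with it.

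Wells of the same replicate number were compared next. The labels do not say that equal numbers belong together, and such wells were no more alike than others on the same side. The pairs are therefore a description. The difference was negative in all 4 pairs for 6 of the 10 genes, namely *Scg2*, *Nptx2*, *Pcsk1*, *Penk*, *Pdyn* and *Nrn1*, against 13.8% of all genes. *Pdyn* belongs to these by very small margins, since its difference in pair 3 was -0.0018 and in pair 1 it was -1.56. The smallest difference of *Penk* was -0.080, in pair 2, and the largest was -0.31, in pair 1. *Vgf* was 0.0085 in pair 1, -0.082 in pair 2, -0.11 in pair 3 and -0.38 in pair 4, so that 1 pair carried most of its difference.

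**Figure D3:**
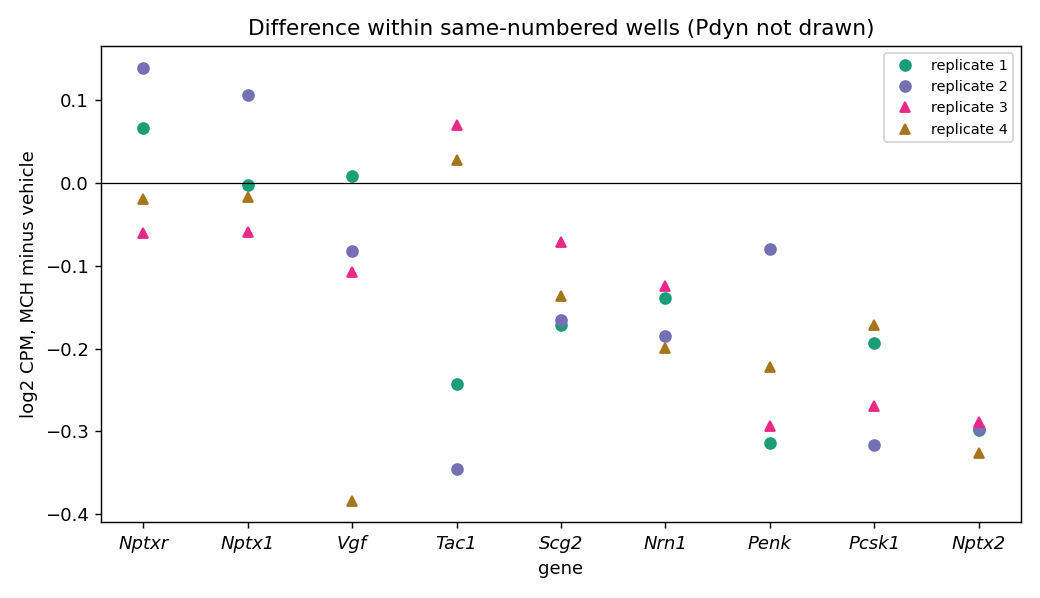
Log2 CPM difference, MCH minus vehicle, between wells of the same number (y axis) for 9 genes (x axis), with replicates 1 and 2 as circles and 3 and 4 as triangles. The 4 points of *Nptx2* lie between -0.33 and -0.29, and those of *Tac1* and *Nptxr* fall on both sides of 0.

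The side of the wells moved with several of the genes. Replicates 3 and 4 were lower than replicates 1 and 2 by 0.34 for *Scg2*, 0.29 for *Tac1*, 0.20 for *Nptxr*, 0.18 for *Vgf* and 0.14 for *Nptx2* on the log2 scale, and *Pdyn* was higher by 1.84. *Nptx1* and *Nrn1* differed between the sides by -0.0039 and 0.0078. The astrocyte marker sums given above moved with the side as well, and their part in these differences was not tested. The mean of the MCH wells was below that of the vehicle wells within both sides for *Nptx2*, *Pcsk1*, *Penk*, *Scg2*, *Nrn1*, *Vgf* and *Pdyn*.

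**Figure D4:**
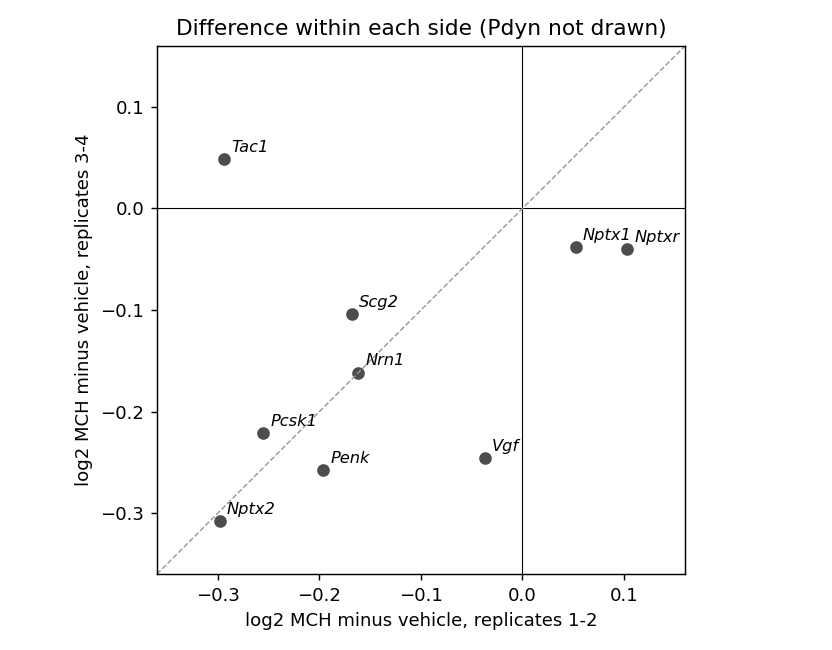
Log2 difference between treatments on replicates 3 and 4 (y axis) against that on replicates 1 and 2 (x axis) for 9 genes, with equality dashed. *Nptx2* and *Nrn1* lie on the dashed line, *Vgf* lies below it, and *Tac1*, *Nptx1* and *Nptxr* lie in the quadrants where the sides have opposite signs.

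Levels per length were compared in TPM (reads scaled to transcript length and depth) over all 8 wells. *Vgf* was highest, at 1392 ± 112 TPM (SD, n = 8), and 55 genes of the whole table had a higher mean. *Nptxr* (796 ± 71.7 TPM) and *Scg2* (711 ± 93.9 TPM) followed, and their wells overlapped. With protein-coding transcripts only, *Nptxr* was at 683 TPM and *Scg2* stood above it. *Nrn1* (290 ± 15.8 TPM), *Nptx1* (219 ± 6.99 TPM) and *Tac1* (107 ± 14 TPM) each stood apart from their neighbours in every well. *Nptx2* (65.2 ± 7.59 TPM) overlapped with *Pcsk1* (52.1 ± 4.69 TPM), and *Pcsk1* with *Penk* (43.8 ± 5.24 TPM). *Pdyn* was at 0.966 ± 0.600 TPM, with 14029 genes above it.

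**Figure D5:**
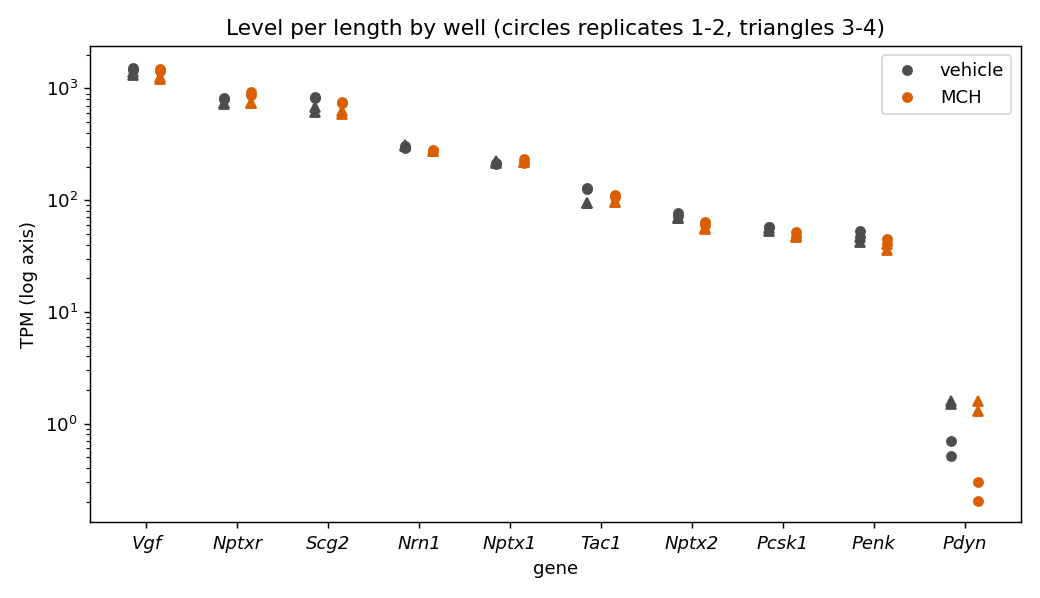
TPM on a log axis (y) of each gene (x, ordered by mean) in the 8 wells, vehicle in grey and MCH in orange, with replicates 1 and 2 as circles and 3 and 4 as triangles. *Pdyn*, with a mean of 0.966 TPM, lies far below the other 9 genes, and its replicates 1 and 2 lie below its replicates 3 and 4.

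The transcript tables held 25 transcripts of these genes, of which 19 were tested. Without a block, 0 of 33527 transcripts passed (edgeR, adjusted *P* below 0.05), while 1476 had an unadjusted *P* below 0.05. At that unadjusted level 4 member transcripts were lower, against 2.25% of all transcripts lower, and none was higher. With the batch block 6 transcripts passed (0.0179%), none of them a member's. *Nptx2* has a single transcript, and its log2 fold change was -0.30 (adjusted *P* = 0.496 among transcripts). *Nrn1-201* carried 98.9% to 100% of the *Nrn1* reads and *Pcsk1-201* 99.6% to 100% of the *Pcsk1* reads, with log2 fold changes of -0.16 and -0.24. For *Vgf* the split was unstable: *Vgf-201*, with the same coding length as *Vgf-204* (617 codons), had 0 reads in vehicle replicate 1 and up to 6520 reads in vehicle replicate 4. *Scg2-201* held 67.5% ± 1.62 of the *Scg2* reads in vehicle and 66.5% ± 1.12 in MCH (SD, n = 4), and *Penk-201* held 81.6% ± 4.67 and 83.2% ± 1.95 of the *Penk* reads.

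*Tac1* was split between 2 transcripts that differ by a coding exon and at both ends. The first exon has 283 bases in *Tac1-205* and 66 in *Tac1-203*, and the last exon 595 and 318 bases. The split of reads therefore need not reflect the coding exon alone. *Tac1-205* carried 78.7% ± 0.647 of the reads in vehicle and 78.1% ± 3.11 in MCH (SD, n = 4), and *Tac1-203*, which lacks its exon 4, carried 21.2% ± 0.640 and 21.6% ± 3.04. Both hold exon 6 of *Tac1-205*, which spells the whole of neurokinin A (capitals). Another transcript, *Tac1-201*, whose coding sequence does not spell neurokinin A, had 0 reads in 7 wells and 7.5 in MCH replicate 1. Both exons lie wholly in the coding sequence and are shown because they tell these transcripts apart, from GENCODE vM21 on GRCm38.
Tac1-205 exon 4, chr6:7557216-7557260, plus strand, 45 bases: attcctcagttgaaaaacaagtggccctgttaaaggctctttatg
Tac1-205 exon 6, chr6:7559099-7559152, plus strand, 54 bases: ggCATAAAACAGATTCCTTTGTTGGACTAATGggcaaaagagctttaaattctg

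Genes of the same pathways were counted from lists. Without a block 0 genes of each list passed by edgeR or limma voom, and DESeq2 called only *Nppc*. At an unadjusted edgeR *P* below 0.05, the lists held 1 lower gene for granins and processing, 4 lower for other neuropeptides, 1 higher for the receptors, 1 lower and 2 higher for pentraxin partners, and 2 lower for other secreted factors. Over all 14962 genes tested, 1272 reached that level in either direction, and 632 of them were lower. Those lower were 4.22% of all genes tested, which is near the share of the granin and pentraxin partner lists. The higher counts are not read as a result about the lists. With the batch block, 391 of all 14962 genes tested fell (2.61%) and 277 rose. Of 23 genes for granins and prohormone processing, all tested, 3 fell with the batch block and none rose, and the median log2 fold change was -0.040. The 3 were *Furin*, another convertase (-0.14, adjusted *P* = 0.0339), *Pam*, which amidates peptides (-0.10, adjusted *P* = 0.0231), and *Syt4*, a dense-core vesicle synaptotagmin (-0.11, adjusted *P* = 0.0195). The most abundant, *Cpe*, the carboxypeptidase that trims the peptides cut by *Pcsk1*, measured 2399 and 2406 CPM in vehicle and MCH, and *Ptprn*, a dense-core vesicle membrane protein, 1207 and 1159 CPM. The extremes without a block were *Syt10* (-0.19, SE 0.22, edgeR adjusted *P* = 0.923) and *Pcsk2*, the other main neuroendocrine convertase (0.079, adjusted *P* = 0.594).

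Of 27 other neuropeptide precursors, 19 were tested, 16 had a negative log2 fold change, and the median was -0.14. Against 2.61% of all genes lower with the batch block, 4 of them fell and none rose. These were *Adcyap1*, the PACAP precursor (-0.44, edgeR adjusted *P* = 0.00647), *Nppc*, the C-type natriuretic peptide precursor (-0.44, adjusted *P* = 0.000728), *Pthlh* (-0.41, adjusted *P* = 6.3e-05) and *Vip* (-0.23, adjusted *P* = 0.0225). *Nppc* came nearest to passing without a block, at an adjusted *P* of 0.0761. The most abundant, *Sst* (530 and 489 CPM in vehicle and MCH) and *Npy* (117 and 105 CPM), both carried by interneurons, did not pass in either fit, and *Pmch*, the MCH precursor, had at most 1 read in a well. *Cartpt*, at the low end (-0.85), had at most 19 reads, and *Calca* was at the high end (0.18, SE 0.18, edgeR adjusted *P* = 0.878 without a block).

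Of 9 receptors listed for these peptides, 6 were tested and their median log2 fold change was 0.22. With the batch block, 277 of all 14962 genes tested rose. *Oprl1*, the opioid-like receptor, which binds nociceptin rather than a member's peptide, rose with that block (0.36, edgeR adjusted *P* = 0.00128). Its wells did not overlap between treatments, at means of 22.7 CPM in vehicle and 29.0 CPM in MCH. *Oprk1*, the dynorphin receptor, had at most 4 reads in a well and was not tested, as was *Oprm1*, while *Oprd1*, the enkephalin receptor, measured 9.29 and 9.09 CPM. *C1qbp*, at the low end (-0.10), was the most abundant of the receptors.

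Of 22 pentraxin partners and other secreted synapse organizers, 21 were tested, with a median of -0.019. With the batch block 1 fell and 1 rose, against 2.61% of all genes lower and 277 of 14962 genes higher. Counts this small are not read as a result about the list. *Gria2*, a subunit of the AMPA receptors that pentraxins bind, rose by 0.11 on the log2 scale with that block (edgeR adjusted *P* = 0.0455), and *Cbln2*, a secreted synapse organizer, fell by 0.27 (adjusted *P* = 0.0165). *Gria1* and *Olfm1*, the most abundant, had log2 fold changes of 0.0042 and 0.020. The extremes without a block were *Ptx3* (-0.29, SE 0.56, edgeR adjusted *P* = 0.987) and *C1ql2* (0.23, SE 0.089, adjusted *P* = 0.497). *Ptx3* had at most 58 reads in a well. Of 15 other secreted activity-regulated factors, 2 fell with the batch block and none rose, with a median of -0.063. *Bdnf*, the neurotrophin, measured 336 CPM in vehicle and 258 CPM in MCH without overlap, with an edgeR adjusted *P* of 0.410 without a block and 1.3e-07 with it, and *Igf1* was at -0.17 (adjusted *P* = 0.0444 with the block). *Vegfa*, next in abundance, was at -0.063. *Wnt2*, at the high end, was at 0.51 (SE 0.28, edgeR adjusted *P* = 0.689 without a block), with at most 54 reads in a well.

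The genes whose pattern over the 8 wells was most like that of the 3 members with the largest differences were found by the root-mean-square difference of centred log2 CPM among 13399 genes. For *Nptx2* they were *Fam107b*, *Avpi1* and *Zfp948*, at 0.042 to 0.055, against a median of 0.199 over the pool. For *Pcsk1* they were *Homer1*, *Synj2* and *Bach1*, at 0.035 to 0.037, against a median of 0.167. *Homer1*, a postsynaptic scaffold gene with an activity-induced short form, passed without a block (log2 fold change -0.30, edgeR adjusted *P* = 0.0488). For *Pdyn* they were *Tmem98*, *Otx2* and *Paqr6*, at 0.17 to 0.25, against a median of 1.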

How the data were processed

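Bulk RNA-seq libraries of 8 wells, 4 vehicle and 4 MCH, were grouped by the sample labels. The authors made poly-A selected, stranded libraries and ran nf-core/rnaseq with salmon on GRCm38. They deposited a gene table of estimated counts (9.13% not whole) and, per well, transcript tables of estimated counts, effective lengths and TPM, scaled for length and depth by the authors' run. Identifiers were matched to GENCODE vM21 (98.8% of genes named), which may not be the authors' release.

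Counts were rounded to whole numbers, filtered with edgeR's filterByExpr (minimum count 10, minimum total 15), scaled by TMM and tested with edgeR's quasi-likelihood test (version 4.0.16, R 4.3.3) with Benjamini–Hochberg adjustment over all genes at 0.05. SE is the log2 fold change over the square root of F. The alternatives were limma voom 3.58.1, DESeq2 1.42.0, other filters, size factors, length offsets, blocks and leaving out wells. Log2 CPM used a prior count of 2. Deviations from the treatment means correlated at 0.445 to 0.545 between wells of the same number, and at 0.475 to 0.521 between different numbers on one side, so the numbers pair wells no more closely than the side does. The sides were read from the first principal component. The tests were checked on a single simulated data set, with changes larger than the log2 fold changes of the 10 genes. In it the share of false calls stayed under the nominal rate in edgeR without a block. That share exceeded the nominal rate in the fits with the batch or the replicate block, so calls made only with a block are less certain. How well differences as small as those of the 10 genes are found was not checked. Transcripts were tested alike.

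The 10 genes and the pathway and marker lists were chosen with earlier results of these data known. The text names all 10 genes, and of each pathway list the genes called without a block, the lowest and highest log2 fold change and the 2 highest mean CPM. Genes called only with the batch block, the receptors of the opioid peptides, the MCH precursor, *Gad1* and *Nppc* were named after their values were seen. A further marker is not reported here. Depth is 26083936 to 31844861 estimated reads per library, and the floor is 3 counts.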

Additional observations from a re-analysis of the deposited data

Results flagged for a closer look

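The MCH-treated well with replicate number 2 measured 676 CPM for *Nptx1*, whereas the 3 others given MCH ranged from 629 to 632 CPM. The gap was 0.934 of the range of the group, above Dixon's 95% critical value for 4 samples. In all, 20 groups of 4 wells were examined, and chance flags about 1 in 20 of them. Without that well the log2 fold changes of *Nptx1* and *Nptxr* were both negative, at -0.014 and -0.022, and neither passed.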

How the results depend on the processing

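Without a block, 35 genes passed in edgeR. That number was 171 with DESeq2, 596 with the replicate block, 668 with the batch block, 593 with DESeq2 and the batch block, 7 with a length offset and 137 with DESeq2 and a length offset. It was 5, 9, 29 and 4 without vehicle replicates 1 to 4 in turn, and 26, 12, 10 and 7 without MCH replicates 1 to 4. Of the 10 genes described, 0 passed without a block, 3 with DESeq2, 5 with the replicate block, 5 with the batch block, 5 with DESeq2 and the batch block, and 3 with DESeq2 and a length offset, and 0 in each of the 8 fits without 1 well. With the batch block, leaving out each well in turn, an alternative chosen after seeing the data, gave 3 to 5 of the 10 genes. *Nptx2*, *Pcsk1* and *Nrn1* were among them each time. *Penk* and *Scg2* were both lost without vehicle replicate 4 (3 genes) and without MCH replicate 3 (3 genes), *Penk* also without vehicle replicate 1 or MCH replicate 1, and *Scg2* also without vehicle replicate 2 (4 genes each). Among transcripts, 0 passed without a block, 0 with the replicate block, 6 with the batch block and 0 to 1 without 1 well, 1 being reached without vehicle replicate 1, 3 or 4. Over the 10 settings that keep all wells, the log2 fold change ranged from -0.30 to -0.29 for *Nptx2*, -0.24 to -0.23 for *Pcsk1*, -0.16 to -0.15 for *Nrn1* and -0.70 to -0.35 for *Pdyn*, and no sign changed among the 10 genes. With the replicate block the edgeR adjusted *P* was 2.8e-05 for *Nptx2*, 0.000983 for *Pcsk1*, 0.00305 for *Nrn1*, 0.0289 for *Penk* and 0.00334 for *Scg2*. *Pdyn* had 8 to 58 reads in a well, so its values carry a larger counting error than those of the other genes. The cause of the differences between settings was not tested.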
